A study of Mus musculus with 8 samples.

Results

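The nuclear genes for the subunits of the mitochondrial respiratory chain and of ATP synthase were followed in mouse embryonic stem (ES) cells and in 3 differentiated cultures derived from them. The members were the genes whose symbol on the array belonged to complex I (Nduf), complex II (Sdh), complex III (Uqcr and Cyc1), cytochrome c (Cycs), complex IV (Cox4 to Cox8) or ATP synthase (Atp5). Of 81 such genes, with 101 probes, 73 had a probe above background (detection p under 0.05) on at least 2 of the 8 arrays, out of 9915 genes kept in all. The members described below are these 73. They comprised 5 core and 27 accessory subunits of complex I, 3 of complex II, 7 of complex III, cytochrome c, 14 of complex IV including Ndufa4, 5 of the F1 part of ATP synthase and 10 of its Fo part and stalk. The remaining member, Cox7a2l, matches by name and is an assembly factor that joins complexes III and IV into supercomplexes. Another 8 genes were left out: Atp5k, Cox6a2, Cox7b2, Cox8b, Ndufs1 and Uqcrfs1 were above background on 0 arrays, and Cox8c and Uqcrq on 1. Cox6a2 and Cox8b are the forms of heart and skeletal muscle.

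Complexes I and II pass electrons from NADH and succinate to ubiquinone, complex III passes them to cytochrome c, and complex IV passes them to oxygen. Protons pumped on the way drive the rotary ATP synthase, whose F1 head makes ATP and whose Fo ring conducts the protons. Pluripotent mouse cells are known to draw on both glycolysis and respiration, and differentiation is commonly accompanied by maturing mitochondria. Subunits encoded by mitochondrial DNA are not among the members.

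All cells came from the line E14TG2a, and each group had 2 arrays. IDE2 cells spent 11 days in medium with IDE2 at 1 uM. This compound is used to direct ES cells towards definitive endoderm. IDE2+FGF2 cells received 1 uM IDE2 for 6 days and then FGF2 at 500 ng/ml for 5 days. IDE2+FGF10 cells received 1 uM IDE2 for 6 days and then FGF10 at 25 ng/ml for 5 days, so the 2 growth factors differed in dose as well as in kind. ES cells were undifferentiated and grown with LIF, which sustains pluripotency. The differentiation medium held low serum and N2 and B27 supplements, and there was no differentiated group without IDE2, so IDE2, medium and time cannot be told apart in comparisons with ES. The labels do not say that replicates are separate cultures. The p-values therefore rest on the spread between the 2 arrays of each group, which may be technical. This spread was pooled over the 4 groups (4 residual degrees of freedom). For each gene limma then drew it towards a value shared by all genes (6.64 prior degrees of freedom). RNA came from whole cultures, in which fewer cells of a type and less RNA per cell cannot be told apart.

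Each array detected between 11609 and 13422 probes, and median signals lay between 117 and 175. Of 10 ES cell markers 9 fell in IDE2 cells against ES, 7 fell in IDE2+FGF2 cells and 9 fell in IDE2+FGF10 cells. Definitive endoderm markers rose (6, 3 and 4 of 6), as did mesenchyme markers (8, 7 and 8 of 8) and neural markers (3 of 4 in each). The endoderm markers moved unequally in IDE2+FGF2 and IDE2+FGF10 cells. In the fit without IDE2 replicate 2 their log2 changes were 2.89 and 3.59 for Krt8, 3.86 and 4.67 for Krt18, and 1.87 and 3.78 for Krt19. They were 0.81 and 0.55 for Sox17, 0.70 and 0.62 for Cxcr4, and -0.07 and 1.91 for Gsc. Of 6 cardiac and skeletal muscle markers, 2, 2 and 3 rose and 2 fell in each. Only markers with a probe above background are counted: 6 of 8 listed for endoderm, 4 of 6 neural and 6 of 9 muscle. Of all genes 23.1%, 17.8% and 22.2% rose against ES, and 22.2%, 16.8% and 22.8% fell. With IDE2 replicate 2 left out, the counts in IDE2 cells were 8 of 10 ES cell markers lower, and 6 of 6 endoderm, 7 of 8 mesenchyme, 3 of 4 neural and 3 of 6 muscle markers higher. The differentiated cultures thus held markers of several cell types, and the part of this mixture in the results below was not tested.

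IDE2 replicate 2 stood apart from every other array in the members. Log2 levels (background-corrected, quantile-normalized intensities) were lower in IDE2 replicate 2 than in IDE2 replicate 1 for 69 of the 73 members, and at least 2-fold lower for 54 of them (74%). Over all 9915 genes, 924 (9.32%) were at least 2-fold lower in replicate 2 and 629 (6.34%) at least 2-fold higher. The members' median difference was -1.41 log2 units, with a range of -2.42 to 0.71, while that of all genes was -0.02. IDE2 replicate 2 was the lowest of the 8 arrays for 61 members, and IDE2 replicate 1 for 1. The arrays of the other groups differed less in the members: the median difference between replicates was -0.05 in IDE2+FGF2, 0.02 in IDE2+FGF10 and 0.26 in ES cells. The shift in ES cells was small but shared by most members. Only 12 of 73 (16.4%) were lower in ES replicate 2, against 50.7% of all genes, whose median there was -0.004. No member differed 2-fold or more between replicates in IDE2+FGF10 or ES cells, and in IDE2+FGF2 cells 3 were at least 2-fold higher and 3 at least 2-fold lower in replicate 2.

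**Figure D1:**
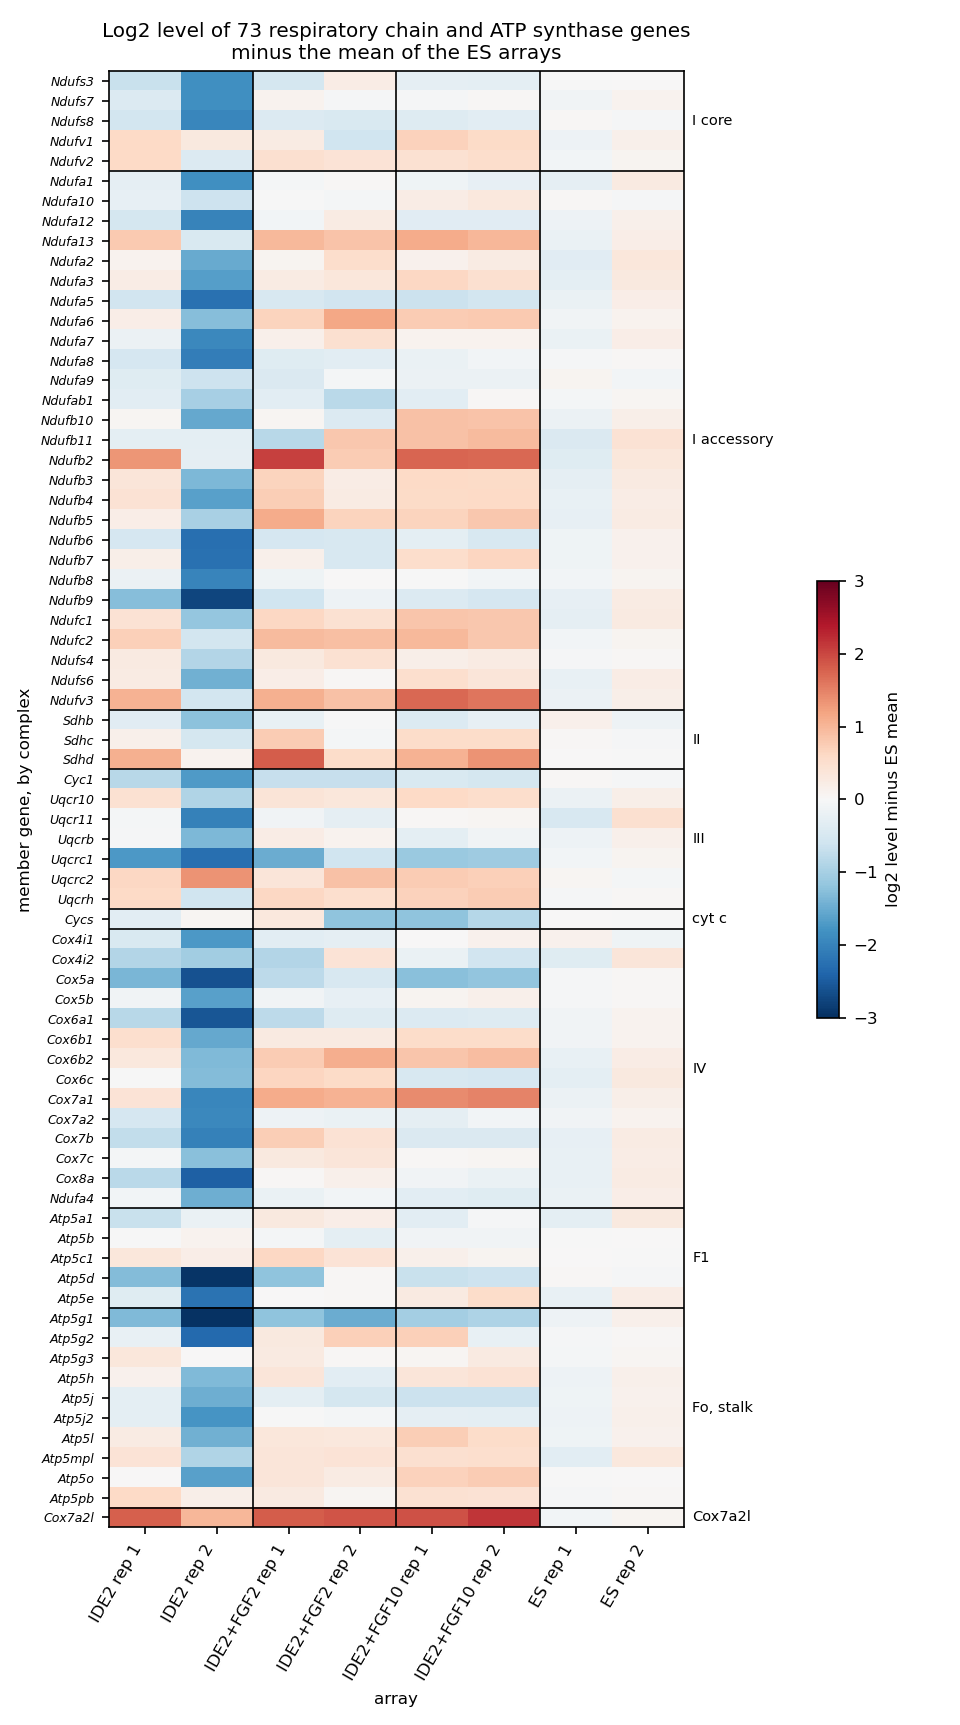
Log2 level of each of the 73 members (rows, ordered by complex) on each of the 8 arrays (columns, by group), minus the mean of the 2 ES arrays. The column of IDE2 replicate 2 is the lowest of the 8 for 61 members, and Cox7a2l in the bottom row is above ES on all 6 arrays of differentiated cells.

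For Cox6b1, a complex IV subunit on the intermembrane side, the difference was already present before normalization. Its unprocessed signal was 13829 in IDE2 replicate 1 and 4641 in IDE2 replicate 2. This is an example from among the steeper drops (-2.04 log2 units after normalization), and unprocessed signals were not summarised over the members. The median signal of all probes went the other way, at 129.9 in replicate 1 and 162 in replicate 2. Atp5b, the catalytic beta subunit of F1, had signals of 49184.8 and 58016.2 on the same 2 arrays, near the top of the scale. Its log2 levels were 15.74 and 15.86. The highest signals on these arrays were 64884.59 and 69854.92, and a probe this bright may not show a difference in full.

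Within IDE2 replicate 2 the drop was unequal between complexes. The accessory subunits of complex I had a median difference between replicates of -1.57 (27 of 27 lower), the Fo and stalk subunits -1.45 (10 of 10 lower), complex IV -1.40 (14 of 14 lower), complex III -1.19 (6 of 7 lower), the core subunits of complex I -1.16 (5 of 5 lower) and complex II -0.89 (3 of 3 lower). The F1 subunits had a median of -0.15, with 3 of 5 lower, and were split. Atp5e and Atp5d differed by -1.87 and -1.64, and Atp5c1, Atp5b and Atp5a1 by -0.15, 0.12 and 0.47. The steepest single differences were in Ndufb7 of the membrane arm of complex I (9.21 in replicate 1 and 6.80 in replicate 2) and in Cox7a1, the heart and muscle form of a complex IV subunit (9.23 and 6.86). The 4 members that were not lower in replicate 2 were Uqcrc2, a core protein of complex III (0.71 higher), Atp5a1, the alpha subunit of F1 (0.47 higher), Cycs, cytochrome c (0.36 higher), and Atp5b (0.12 higher). For Cycs this rests on its chosen probe, at 6.76 and 7.12. Its other probe went the other way, at 6.66 and 6.29. The lowest levels of detected probes on these arrays were 5.49 and 5.36, so both Cycs probes were weak. Atp5c1, the gamma subunit that turns inside F1, differed by -0.15, and Atp5g3, a gene for the c subunit of the Fo ring, by -0.33.

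**Figure D2:**
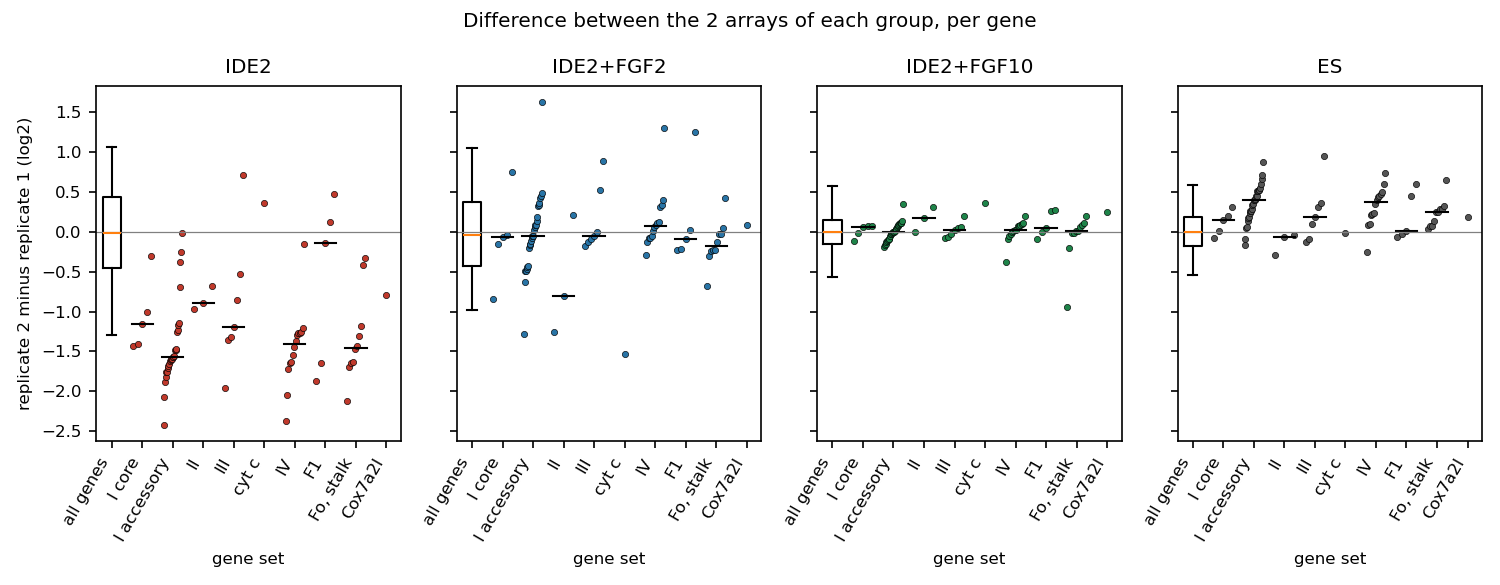
Replicate 2 minus replicate 1 on the log2 scale for every member (points, by complex; black bars are medians) in each group, beside all 9915 genes (box with median and quartiles, whiskers at the percentiles 5 and 95). In IDE2 cells 69 of 73 members lie below 0, while in IDE2+FGF10 cells the members lie between -0.94 and 0.36.

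Other mitochondrial genes differed from set to set. Mitochondrial ribosomal proteins, a set taken by symbol (Mrpl and Mrps) after the data were seen, shared much of the drop: the median of 71 genes was -1.21 between the IDE2 arrays, and 43 (60.6%) were at least 2-fold lower in replicate 2. For 60 cytosolic ribosomal proteins, chosen in the same way, the median was -0.64, and 21 (35%) were at least 2-fold lower. In the other groups both medians lay between -0.20 and 0.08. Between the same 2 IDE2 arrays the median difference was 0.02 for 11 genes of the tricarboxylic acid cycle, 0.24 for 8 genes of pyruvate entry, 0.07 for 13 genes of mitochondrial gene expression and biogenesis, -0.01 for 11 carriers and channels, -0.34 for 9 import genes, -0.29 for 23 assembly factors and -0.96 for 6 antioxidant genes. These differences compare single arrays and have no test. The markers of other cell types differed by medians of -0.22 (ES cells), -0.08 (definitive endoderm), 0.20 (mesenchyme), 0.10 (neural) and -0.35 (muscle) between these arrays. Because of the split between the IDE2 arrays, results on IDE2 cells below are set beside their values without IDE2 replicate 2.

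The genes outside the list whose log2 levels followed the members' mean most closely over the 8 arrays were Siva1, a regulator of apoptosis (Pearson's r = 0.995), Mrpl14, of the mitochondrial ribosome (0.992), Rps15 (0.992) and Rps26 (0.990), of the cytosolic ribosome, and Pam16, of the import motor (0.989). Over the 7 arrays without IDE2 replicate 2, their r was 0.905, 0.883, 0.906, 0.813 and 0.800. Siva1 stood at 11.56 in IDE2 replicate 2 and between 12.65 and 13.01 on the other arrays. Among the members, Atp5e (r = 0.985 with the members' mean), Ndufs7 (0.981) and Ndufa7 (0.981) were the most typical, and Atp5b (-0.65), Uqcrc2 (-0.58) and Cycs (-0.39) the least. The median r of a member with the mean was 0.895 over 8 arrays and 0.43 without IDE2 replicate 2. These correlations describe arrays that share one normalization, and the members are part of the mean.

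The first comparison asked how the members changed after 11 days of IDE2. Against ES, 18 of the 73 members fell and 2 rose in IDE2 cells (limma, adjusted p under 0.05), and 53 did not pass. Over all genes 22.2% fell and 23.1% rose (45.3% in all), so the share of members that fell (24.7%) was near that of all genes and the share that rose (2.74%) was below it. The members' median log2 change was -0.70, and that of all genes -0.01. Without IDE2 replicate 2, 6 members fell and 3 rose against 18.7% and 20.5% of all genes (39.2% in all), with a median of -0.06. Both IDE2 arrays lay below both ES arrays for 30 members and above them for 6, against 36.2% and 36.8% of all genes. Of the 18 falls 6 were among the calls of that fit too: Ndufb9, Cyc1, Uqcrc1, Cox5a, Cox6a1 and Atp5g1. Of the 2 rises Cox7a2l was kept. The count of 20 was 54 without IDE2 replicate 1, 13 without IDE2+FGF2 replicate 1, 9 without ES replicate 1 and 7 without ES replicate 2. Array by array, IDE2 replicate 2 was below both ES arrays for 61 members and above both for 8, and IDE2 replicate 1 was below both for 32 and above both for 27.

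In complex I, 3 of 5 core subunits fell in IDE2 cells. Ndufs3, Ndufs7 and Ndufs8, the last 2 of which carry iron-sulphur clusters, changed by -1.25 ± 0.39, -1.13 ± 0.41 and -1.25 ± 0.40 log2 units (SE, n = 2 arrays per group, limma adjusted p = 0.0241, 0.0419 and 0.0257). None of the 3 passed without IDE2 replicate 2 (adjusted p = 0.149, 0.206 and 0.0948). The median change of the core subunits was -1.13, and -0.42 without that array. Of 27 accessory subunits 5 fell and 0 rose, with a median of -0.60. When IDE2 replicate 2 was left out, 1 of them fell and 2 rose (Ndufc2 and Ndufv3), with a median of 0.11. Ndufb9, of the membrane arm, had log2 levels of 8.89 and 7.42 in IDE2 cells, against 9.92 and 10.43 in ES cells. Both IDE2 arrays were below both ES arrays, a 4.06-fold fall (log2 change -2.02 ± 0.43, SE, limma adjusted p = 0.00354) that was 2.45-fold without IDE2 replicate 2 (adjusted p = 0.0185). Ndufa5, of the matrix arm, fell 2.65-fold (adjusted p = 0.0261); without IDE2 replicate 2 its log2 change was -0.59 and did not pass (0.125).

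In complex II no subunit passed, and Sdhb, the iron-sulphur subunit, changed by -0.79 (limma adjusted p = 0.0742), and by -0.35 without IDE2 replicate 2 (0.326). In complex III, 2 of 7 subunits fell and 1 rose, and without IDE2 replicate 2 the same 2 fell and 0 rose. Uqcrc1 had log2 levels of 10.97 and 10.43 in IDE2 cells, against 12.60 and 12.78 in ES cells. It fell 3.96-fold (log2 change -1.99 ± 0.34, SE, adjusted p = 0.00097) and 3.37-fold without IDE2 replicate 2 (adjusted p = 0.011). Its partner Uqcrc2 stood at 13.38 and 14.10 in IDE2 cells, against 12.82 and 12.70 in ES cells. It rose 1.97-fold (adjusted p = 0.0287), a call that ended without IDE2 replicate 2 (1.55-fold, 0.127) and under median scaling of the arrays (log2 change 0.54, 0.207). Cyc1, the haem-bearing cytochrome c1, fell 2.40-fold (adjusted p = 0.00834; 1.80-fold and 0.0263 without IDE2 replicate 2), a call that ended without ES replicate 1 (0.0625). Cycs, at 6.76 and 7.12 in IDE2 cells and 7.08 and 7.07 in ES cells, did not pass (adjusted p = 0.824).

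In complex IV, 6 of 14 subunits fell in IDE2 cells with a median log2 change of -0.91 and a range of -1.99 to -0.51. Without IDE2 replicate 2, 2 of 14 fell, the median was -0.28, and 11 changes were negative and 3 positive, between -1.39 and 0.51. Cox5a, a matrix-side subunit, had 13.03 and 11.77 in IDE2 cells, against 14.34 and 14.44 in ES cells. It fell 3.97-fold (log2 change -1.99 ± 0.38, SE, limma adjusted p = 0.00183) and 2.62-fold without IDE2 replicate 2 (adjusted p = 0.00589). Cox6a1, the form used outside muscle, fell 3.25-fold (adjusted p = 0.0124) and 1.81-fold without IDE2 replicate 2 (0.0452). Cox8a (3.08-fold), Cox7b (2.59-fold), Cox7a2 (2.32-fold) and Cox4i1 (2.13-fold) fell in the fit of all arrays. These calls ended without IDE2 replicate 2, where the log2 changes were -0.82, -0.73, -0.50 and -0.46. Of 19 alternative settings, 16, 15, 11 and 9 kept them. Cox6b1, Cox6b2, Cox7a1 and Ndufa4 did not pass, with changes of -0.52, -0.51, -0.78 and -0.77. In the fit without IDE2 replicate 2 the changes of the first 3 had the opposite sign, at 0.51, 0.31 and 0.42, and that of Ndufa4 was -0.09, and none of the 4 passed. Cox4i2, the form known from lung and low oxygen, was not well above background on any IDE2 array and on 1 of 2 ES arrays.

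In ATP synthase, 1 of 5 F1 subunits and 1 of 10 Fo and stalk subunits fell. Leaving out IDE2 replicate 2, 0 of 5 (limma) and 1 of 10 fell. Atp5g1, a gene for the c subunit of the Fo ring, had 12.47 and 10.84 in IDE2 cells, against 13.65 and 13.94 in ES cells. It fell 4.41-fold (log2 change -2.14 ± 0.45, SE, limma adjusted p = 0.00301) and 2.55-fold without IDE2 replicate 2 (adjusted p = 0.00821). Atp5g2 and Atp5g3, which encode the same mature ring protein, did not pass, with changes of -1.28 (adjusted p = 0.0918) and 0.17 (0.637), or of -0.22 and 0.34 without IDE2 replicate 2. Atp5g3 stood at 15.50 and 15.17 in IDE2 cells and at 15.09 and 15.23 in ES cells. Atp5d, the delta subunit of the central stalk, fell 4.33-fold (adjusted p = 0.00702), a call that ended without IDE2 replicate 2 (log2 change -1.32, 0.0644). It stood at 11.46 and 9.82 in IDE2 cells, against 12.78 and 12.72 in ES cells. Atp5a1 and Atp5b changed by -0.43 and 0.05 and did not pass, nor did they without IDE2 replicate 2 (-0.68 and -0.01).

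**Figure D3:**
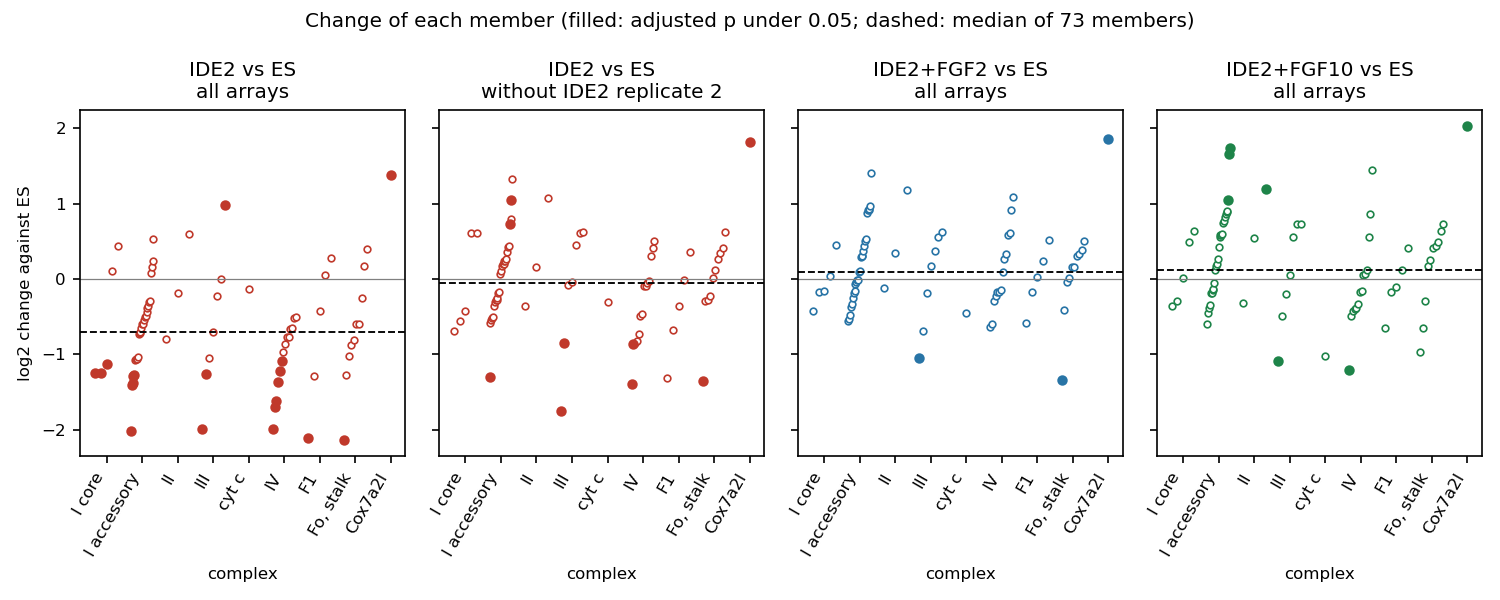
Log2 change of each member against ES by complex (filled points have a limma adjusted p under 0.05, the dashed line is the median of the 73 members), for IDE2 cells with all arrays and without IDE2 replicate 2, for IDE2+FGF2 and for IDE2+FGF10 cells. The median is -0.70 in the first panel, -0.06 in the second, 0.10 in the third and 0.12 in the last.

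Cox7a2l rose in every differentiated group. It had log2 levels of 12.64 and 11.84 in IDE2 cells, 12.67 and 12.75 in IDE2+FGF2 cells and 12.76 and 13.01 in IDE2+FGF10 cells, against 10.76 and 10.95 in ES cells. All 6 arrays of differentiated cells were above both ES arrays. It rose 2.61-fold in IDE2 cells (log2 change 1.38 ± 0.32, SE, n = 2 arrays per group, limma adjusted p = 0.00496), 3.62-fold in IDE2+FGF2 cells (adjusted p = 0.00129) and 4.09-fold in IDE2+FGF10 cells (0.000505). Without IDE2 replicate 2 the rise in IDE2 cells was 3.53-fold (adjusted p = 0.00203). These comparisons share the ES arrays. Together with the falls of Uqcrc1, Cox5a, Atp5g1 and Ndufb9 in IDE2 cells, they were the 7 of 32 calls on named members that held in all 19 alternative settings.

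**Figure D4:**
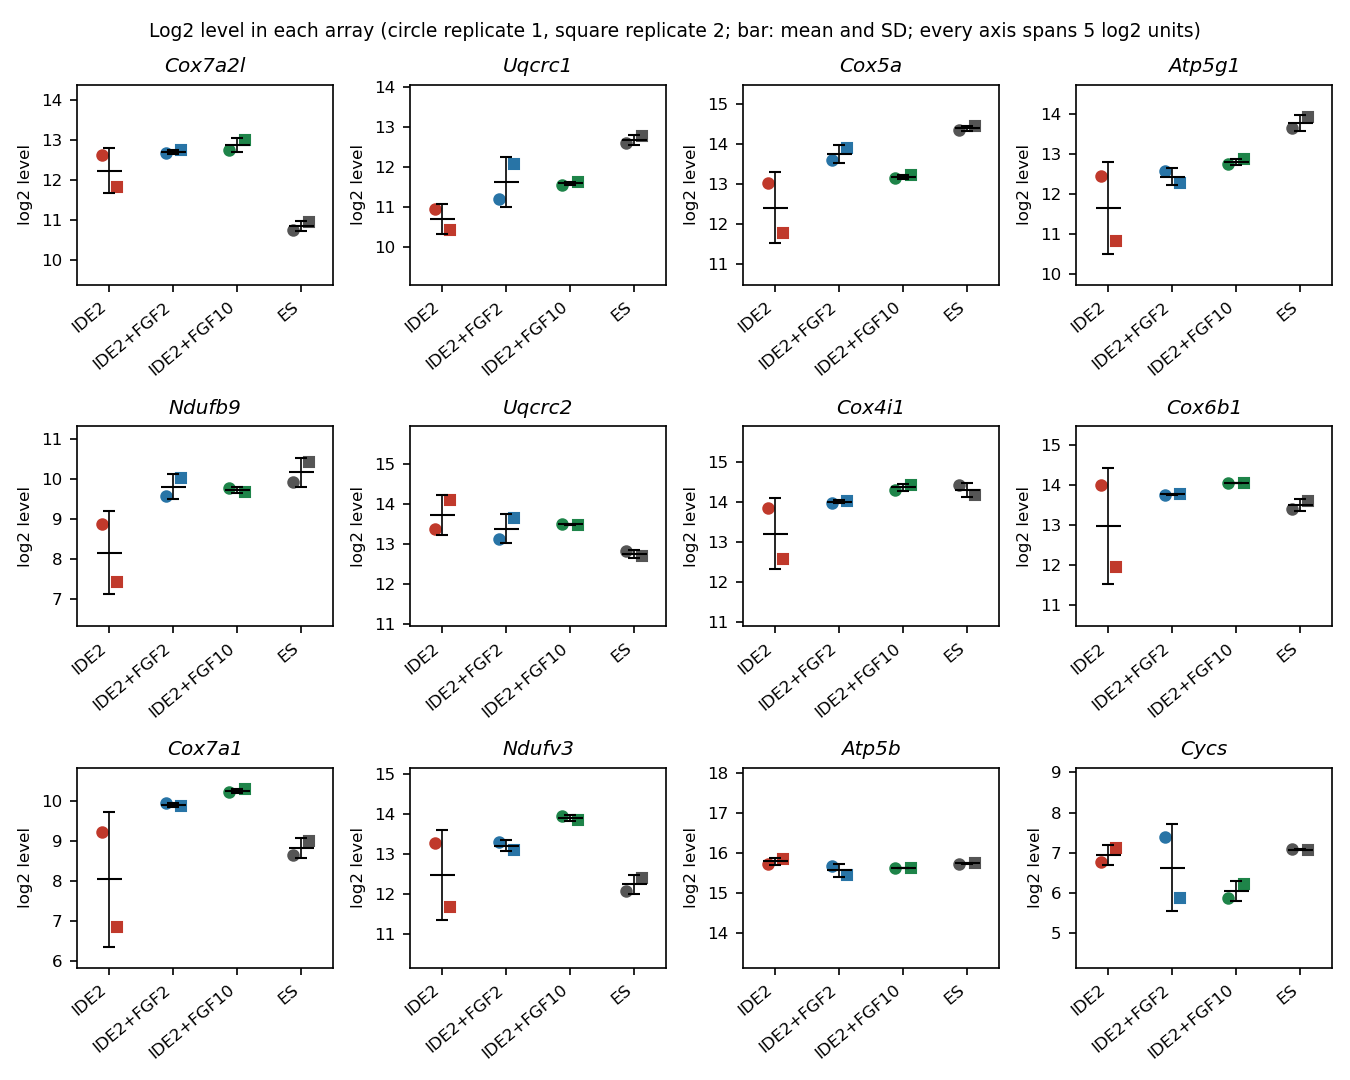
Log2 level of 12 members on each array (circle replicate 1, square replicate 2), with the mean and SD of the 2 arrays, for IDE2, IDE2+FGF2, IDE2+FGF10 and ES cells; all axes span the same number of log2 units. Cox7a2l lies above ES in every differentiated group, Uqcrc1, Cox5a and Atp5g1 lie below it, and Cox6b1 and Cox7a1 show the split between the IDE2 arrays.

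The promoters of Cox7a2l, the member that rose in every group, of Uqcrc1, the complex III subunit that fell in every group, and of Cox6a1 are shown for their letters at the start of transcription. The sequences are those of RefSeq on GRCm38.p6, from 250 bases before to 50 after the gene's start, 5′ to 3′ on the gene's strand: Cox7a2l at chr17:83514284-83514583 (minus strand), Uqcrc1 at chr9:108936398-108936697 (plus strand) and Cox6a1 at chr5:115348909-115349208 (minus strand). Capitals mark matches on either strand to the palindrome bound by nuclear respiratory factor 1 (NRF1), spelled by the capitals in Uqcrc1, and to CCGGAAG, the core bound by ETS factors such as GABP; both factors are known regulators of respiratory chain genes.
Cox7a2l: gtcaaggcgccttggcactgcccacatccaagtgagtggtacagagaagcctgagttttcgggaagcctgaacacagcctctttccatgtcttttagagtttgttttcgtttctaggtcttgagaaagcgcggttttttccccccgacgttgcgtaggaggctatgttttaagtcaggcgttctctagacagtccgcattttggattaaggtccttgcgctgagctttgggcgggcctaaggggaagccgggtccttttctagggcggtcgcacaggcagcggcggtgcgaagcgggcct
Uqcrc1: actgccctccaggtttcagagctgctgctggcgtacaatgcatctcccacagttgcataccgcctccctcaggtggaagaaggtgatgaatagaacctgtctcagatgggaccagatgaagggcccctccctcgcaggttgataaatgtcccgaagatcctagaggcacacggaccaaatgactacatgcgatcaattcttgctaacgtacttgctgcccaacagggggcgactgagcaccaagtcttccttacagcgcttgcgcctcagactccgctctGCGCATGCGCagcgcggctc
Cox6a1: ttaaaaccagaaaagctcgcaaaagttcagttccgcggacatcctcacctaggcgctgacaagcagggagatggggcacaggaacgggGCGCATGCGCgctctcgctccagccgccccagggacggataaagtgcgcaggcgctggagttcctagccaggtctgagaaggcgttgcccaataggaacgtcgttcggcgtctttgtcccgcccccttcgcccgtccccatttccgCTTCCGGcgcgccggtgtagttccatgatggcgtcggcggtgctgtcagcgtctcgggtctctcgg

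Promoters were at hand for 62 of the 73 members (67 promoters). The NRF1 palindrome stood in 3 of them (4.48%; Uqcrc1, Cox6a1 and Atp5g2), against 0.971% of 32851 promoters of all genes. In Uqcrc1 the match began 30 bases after the start, in Cox6a1 162 bases before it and in Atp5g2 42 bases before it. CCGGAAG stood in 15 member promoters (22.4%), against 8.86% of all, and in Cox6a1 the match began 16 bases before the start. AAGATGGCG, the YY1 motif, stood in 7 (10.4%), against 1.4% of all, and TCAAGGTCA, the site of oestrogen-related receptors, in 2 (2.99%; Atp5g3 and Sdhd), against 0.423%. No 2 of these letter strings overlap one another in the promoters shown. The promoter of Cox7a2l held none of the 4, and neither did those of Atp5g1 and Cox5a, which fell in IDE2 cells. A match is a run of letters and was not tested as a binding site.

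The next comparisons asked how the members stood after the switch to FGF2 or FGF10. In IDE2+FGF2 cells 2 members fell and 1 rose against ES, where 16.8% of all genes fell and 17.8% rose (34.5% in all), and the members' median log2 change was 0.10. Uqcrc1 fell 2.07-fold (limma adjusted p = 0.0354) and Atp5g1 2.54-fold (0.0377), and Cox7a2l was the rise. Uqcrc1 stood at 11.20 and 12.08 in IDE2+FGF2 cells, below both ES arrays. In the fit of all arrays Cox5a changed by -0.64 and did not pass (limma adjusted p = 0.227). With IDE2 replicate 2 left out the same groups gave 11 rises and 4 falls, against 21.6% and 20.8% of all genes (42.3% in all). With all arrays, both IDE2+FGF2 arrays lay above both ES arrays for 27 members and below them for 15, against 34.8% and 35.2% of all genes. IDE2 replicate 2 belongs to neither group and enters through the shared estimate of the spread and the joint normalization. Leaving it out gave a log2 change of -1.07 for Uqcrc1, -1.37 for Atp5g1, -0.65 for Cox5a and 1.89 for Cox7a2l. The 27 accessory subunits of complex I then had a median change of 0.11, with a range of -0.55 to 1.42. The count of 3 was 15 without it, 14 without IDE2 replicate 1, and 1 without either IDE2+FGF10 array or either ES array.

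In IDE2+FGF10 cells 5 members rose and 2 fell against ES, where 22.2% of all genes rose and 22.8% fell (45.1% in all), with a median of 0.12. Beside Cox7a2l the rises were Ndufb2, of the membrane arm of complex I (3.34-fold, limma adjusted p = 0.0214), Ndufv3, of its NADH-oxidizing module (3.17-fold, 0.0103), Sdhd, a membrane anchor of complex II (2.29-fold, 0.0436), and Ndufa13, also known as GRIM-19 (2.06-fold, 0.045). Ndufv3 had log2 levels of 13.96 and 13.86 in IDE2+FGF10 cells, against 12.08 and 12.42 in ES cells. Ndufb2 had 10.35 and 10.32 in IDE2+FGF10 cells, against 8.24 and 8.95 in ES cells. The groups did not overlap in any of these members. The falls were Uqcrc1 (2.13-fold, adjusted p = 0.0239) and Cox5a (2.32-fold, 0.0238). Cox5a had 13.14 and 13.21 in IDE2+FGF10 cells, against 14.34 and 14.44 in ES cells. Without IDE2 replicate 2, 17 members rose and 4 fell, against 25.6% and 26.6% of all genes (52.2% in all). With all arrays, both IDE2+FGF10 arrays lay above both ES arrays for 35 members and below them for 22, against 40.4% and 41.1% of all genes. The count of 7 was 21 without IDE2 replicate 2, 21 without IDE2 replicate 1, 1 and 2 without IDE2+FGF10 replicates 1 and 2, and 1 and 3 without ES replicates 1 and 2. Under median scaling the median of all genes moved to -0.23 and that of the members to -0.01, and the rises of Sdhd (adjusted p = 0.121) and Ndufa13 (0.0549) no longer passed.

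With all arrays, the members called alike against ES in more than 1 differentiated group were Cox7a2l, Uqcrc1, Atp5g1 and Cox5a. The calls rest on a spread shared with IDE2 replicate 2, so a member not named here need not differ between groups. Without that array, log2 changes in IDE2+FGF2 and IDE2+FGF10 cells were 1.42 and 1.75 for Ndufb2 and 0.98 and 1.70 for Ndufv3. They were 1.19 and 1.21 for Sdhd and 0.95 and 1.08 for Ndufa13. With all arrays these members were called in IDE2+FGF10 cells only. Uqcrc1 changed by -1.99, -1.05 and -1.09 in IDE2, IDE2+FGF2 and IDE2+FGF10 cells. Atp5g1 changed by -2.14, -1.35 and -0.97, of which the last did not pass (limma adjusted p = 0.0993). Without IDE2 replicate 2 its changes were -1.35, -1.37 and -0.99. Cox5a changed by -1.99, -0.64 and -1.21, of which the second did not pass. Without IDE2 replicate 2 the changes of Cox5a were -1.39, -0.65 and -1.24. The 3 comparisons share the ES arrays, so the agreement of their signs is no independent support.

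Against IDE2 cells, 3 members rose and 0 fell in IDE2+FGF2 cells, where 3.7% of all genes rose and 3.8% fell (7.5% in all), and the members' median change was 0.86. The rises were Cox7b (3.88-fold, limma adjusted p = 0.0193), Cox8a (3.30-fold, 0.0453) and Ndufb9 (3.15-fold, 0.0453). Cox7b, a small membrane subunit of complex IV, had 9.01 and 8.72 in IDE2+FGF2 cells, against 7.55 and 6.26 in IDE2 cells. In IDE2+FGF10 cells 5 members rose and 0 fell against IDE2, where 4.13% of all genes rose and 9.76% fell (13.9% in all), with a median of 0.93. They were Cox7a1 (4.66-fold, adjusted p = 0.0313), Atp5e, the epsilon subunit of F1 (3.26-fold, 0.0442), Ndufb10 (3.03-fold, 0.0405), Ndufb9 (2.97-fold, 0.0381) and Atp5o, of the peripheral stalk (2.91-fold, 0.043). Cox7a1 had 10.23 and 10.30 in IDE2+FGF10 cells, against 9.23 and 6.86 in IDE2 cells. Both IDE2+FGF2 arrays lay above both IDE2 arrays for 43 members and below them for 2, against 24% and 24.2% of all genes. For IDE2+FGF10 these counts were 53 and 3, against 34.5% and 31%.

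All 8 of these calls ended without IDE2 replicate 2. Of the 73 members 0 then passed in either comparison with IDE2 (limma), where 1.78% of all genes passed for IDE2+FGF2 (0.958% higher, 0.817% lower) and 1.01% for IDE2+FGF10 (0.212% higher, 0.797% lower), and 8 and 6 members had an unadjusted p under 0.05. The medians were then 0.15 for IDE2+FGF2 and 0.23 for IDE2+FGF10. Without IDE2 replicate 1 the counts were 56 and 57. The count of 3 for IDE2+FGF2 was also 1 without IDE2+FGF2 replicate 1, 0 without its replicate 2, and 1 without any single IDE2+FGF10 or ES array. The count of 5 for IDE2+FGF10 was 1 without either IDE2+FGF2 array, 0 without either IDE2+FGF10 array, 0 without ES replicate 1 and 1 without ES replicate 2. Cox7b still differed by 1.33 log2 units between IDE2+FGF2 cells and the remaining IDE2 array (adjusted p = 0.081), and Cox7a1 by 1.03 between IDE2+FGF10 cells and that array (0.0856).

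Between IDE2+FGF10 and IDE2+FGF2 cells 0 members passed (limma; 4 had an unadjusted p under 0.05), where 2.6% of all genes rose and 4.71% fell (7.31% in all). Both IDE2+FGF10 arrays lay above both IDE2+FGF2 arrays for 29 members and below them for 16, against 29.5% and 30.2% of all genes. The members' median difference was 0.06, with a range of -1.10 to 1.05. With arrays scaled to one median it was -0.11, and that of all genes -0.27. Without IDE2 replicate 2, Ndufb10 was higher in IDE2+FGF10 cells (log2 difference 1.05, adjusted p = 0.0326), at 10.38 and 10.37, against 9.56 and 9.09 in IDE2+FGF2 cells. Cox7b was lower (-1.03, 0.0352), at 7.85 and 7.85 in IDE2+FGF10 cells, against 9.01 and 8.72 in IDE2+FGF2 cells. Cox6c, another complex IV subunit, was also lower (-1.13, 0.0292). Of all genes 5.88% rose and 9.79% fell there (15.7% in all). The count was 3 without IDE2 replicate 1 as well, and 1 without IDE2+FGF2 replicate 1.

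Of the 73 members 12 had more than one probe above background, and no gene had probes called in opposite directions. The 16 other probes had the sign of the chosen probe in 13, 14 and 13 cases in the 3 comparisons with ES (IDE2 first, IDE2+FGF10 last). Some probes of one gene differed in size or sign, and 2 such genes are named here after their values were seen. Another probe of Sdhb was higher in IDE2+FGF10 cells than in ES cells (log2 change 0.95, adjusted p = 0.019 in a fit of all probes), while its chosen probe changed by -0.32 and did not pass. Ndufb6, of the membrane arm of complex I, is the other. Its other probe changed by -2.19, -1.36 and -1.72 (adjusted p = 0.002, 0.031 and 0.00766 in a fit of all probes), while its chosen probe changed by -1.38, -0.48 and -0.38 and passed in IDE2 cells only.

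Other genes of mitochondrial metabolism changed one by one. Against ES, 22.2%, 16.8% and 22.8% of all genes fell in IDE2, IDE2+FGF2 and IDE2+FGF10 cells, and 23.1%, 17.8% and 22.2% rose. The counts per list below are to be read beside these shares, and no list was tested as a set. The falls and rises in IDE2 cells that are named here with values passed without IDE2 replicate 2 as well: the log2 change was then -1.41 for Ogdh, -0.87 for Mdh2, -1.52 for Pcx, -1.54 for Pdk1, -1.19 for Pdk4, -1.69 for Twnk, -1.42 for Gabpa, -1.03 for Tfam, -1.32 for Ppargc1b, 1.47 for Tfb1m, 1.65 for Uqcc1, -1.10 for Sdhaf1, -1.57 for Slc25a20, -2.09 for Slc25a12 and 1.67 for Txnrd2. Of 11 genes of the tricarboxylic acid cycle 2 fell in each differentiated group against ES and 0 rose. Ogdh, of the oxoglutarate dehydrogenase complex, fell in all 3 groups, by 2.99-fold, 2.05-fold and 2.11-fold in the order IDE2, IDE2+FGF2, IDE2+FGF10 (limma adjusted p = 0.00168, 0.0204 and 0.0131). Mdh2 was the other fall in IDE2 (2.20-fold) and IDE2+FGF2 cells (1.87-fold), and Dld in IDE2+FGF10 cells (3.11-fold). Of 8 genes of pyruvate entry 3, 2 and 4 fell and 0 rose. Pcx, pyruvate carboxylase, fell in all 3 groups (log2 changes -1.86, -1.20 and -1.23), and the kinases Pdk1 (log2 changes -1.34 and -1.58) and Pdk4 (-1.24 and -1.33), which switch off pyruvate dehydrogenase, fell in IDE2 and IDE2+FGF10 cells. Pdk4 was 3.38-fold lower in IDE2+FGF10 than in IDE2+FGF2 cells (adjusted p = 0.0058).

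Of 13 genes of mitochondrial gene expression and biogenesis 4, 3 and 4 fell and 1, 2 and 1 rose in IDE2, IDE2+FGF2 and IDE2+FGF10 cells. Of all genes 22.2%, 16.8% and 22.8% fell and 23.1%, 17.8% and 22.2% rose. Twnk, the helicase of mitochondrial DNA, fell 2.80-fold, 4.33-fold and 3.95-fold (limma adjusted p = 0.00235, 0.000392 and 0.000386). Tfam, which packages mitochondrial DNA, fell in IDE2 (log2 change -0.88) and IDE2+FGF10 cells (-1.66), and stood at 9.45 and 9.37 in IDE2+FGF10 cells, against 11.19 and 10.96 in ES cells. Gabpa, which encodes the DNA-binding subunit of GABP, fell in all 3 groups (log2 changes -1.01, -1.55 and -1.59), and Ppargc1b, a coactivator of respiratory genes, fell 2.89-fold in IDE2 cells (0.00156). Tfb1m rose in IDE2 (1.36) and IDE2+FGF10 cells (1.36), and Polg2 rose 2.34-fold in IDE2+FGF2 cells (adjusted p = 0.00795). With all arrays Nrf1 did not pass against ES in any group, and was 2.15-fold higher in IDE2+FGF10 than in IDE2+FGF2 cells (limma adjusted p = 0.0418). Without IDE2 replicate 2 its log2 changes against ES were 0.43, -0.78 and 0.32 in IDE2, IDE2+FGF2 and IDE2+FGF10 cells.

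Of 23 assembly factors 3, 1 and 4 fell and 1, 0 and 1 rose against ES. For this and the next lists the shares of all genes were again 22.2%, 16.8% and 22.8% lower and 23.1%, 17.8% and 22.2% higher. Uqcc1, which helps to build complex III, rose 2.98-fold in IDE2 and 3.32-fold in IDE2+FGF10 cells (limma adjusted p = 0.00164 and 0.000886). Sdhaf1 fell 2.78-fold in IDE2 cells and Ndufaf4 2.96-fold in IDE2+FGF10 cells. Of 11 carriers and channels 4, 3 and 3 fell and 1, 1 and 2 rose. Slc25a20, the carnitine carrier, fell 3.71-fold, 3.60-fold and 2.89-fold, and the aspartate-glutamate carrier Slc25a12 fell 4.09-fold, 3.58-fold and 3.38-fold (adjusted p of all 6 was 0.00223 or less). Of 6 antioxidant genes 3, 1 and 1 fell and 1 rose in each group, namely Txnrd2, the mitochondrial thioredoxin reductase (2.98-fold, 2.27-fold and 4.89-fold). Of 9 import genes 1, 1 and 2 fell and 1, 0 and 1 rose. Hspd1, the chaperonin of the matrix, fell 2.02-fold in IDE2+FGF2 and 3.52-fold in IDE2+FGF10 cells (adjusted p = 0.0359 and 0.00131).

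**Figure D5:**
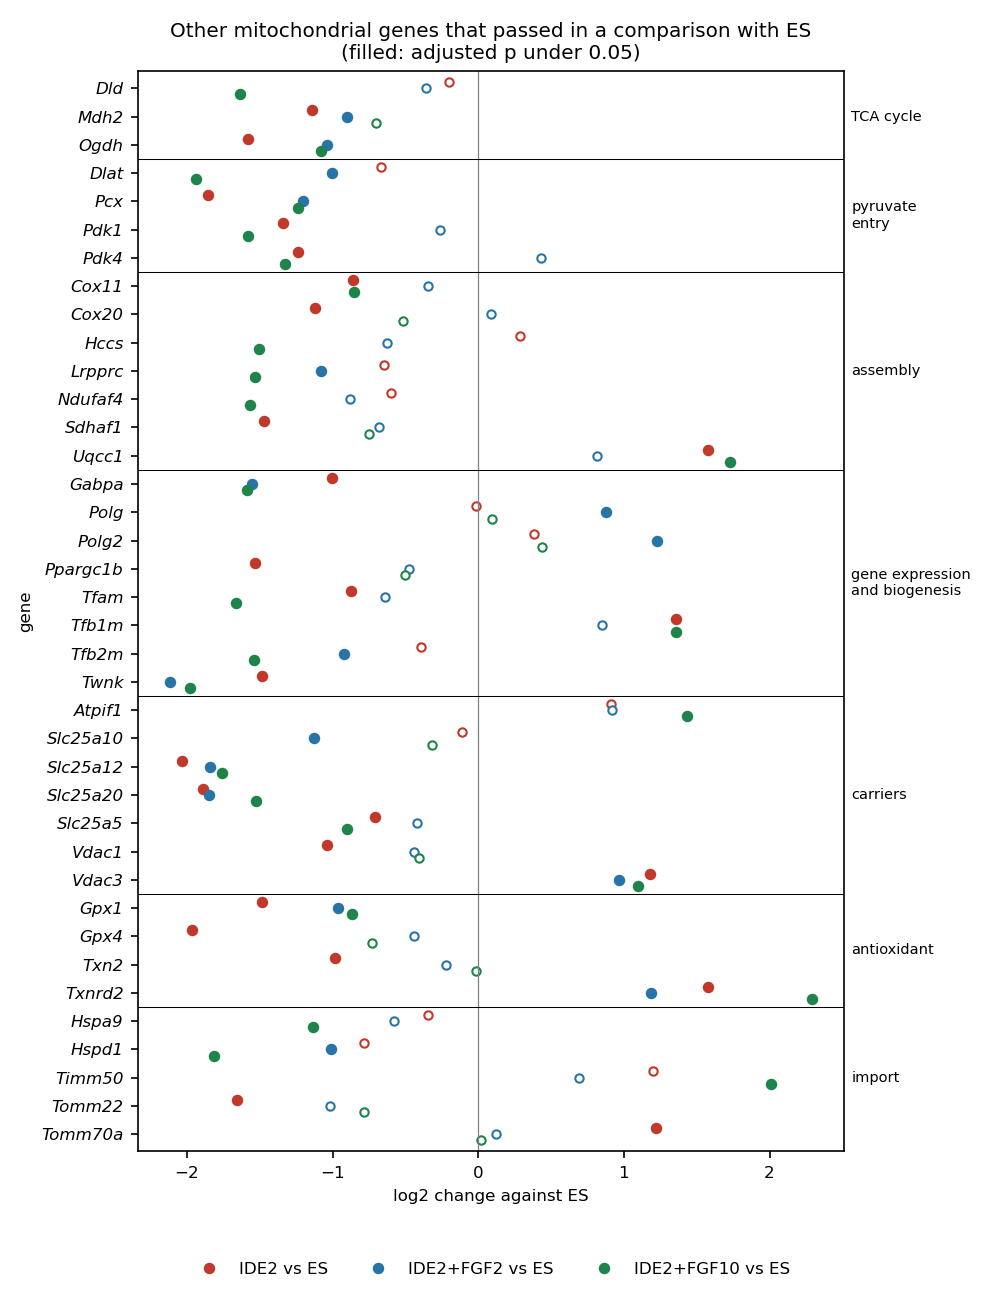
Log2 change against ES of the 38 of 81 other mitochondrial genes that passed in at least one comparison with ES, grouped by list, in IDE2, IDE2+FGF2 and IDE2+FGF10 cells (filled points have a limma adjusted p under 0.05). Twnk, Slc25a12, Slc25a20 and Ogdh lie below 0 and Txnrd2 and Vdac3 above 0 with filled points in all 3 groups. Of all genes 45.3%, 34.5% and 45.1% passed in the single comparisons of IDE2, IDE2+FGF2 and IDE2+FGF10 with ES.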

How the data were processed

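Total RNA of 8 samples was labelled and measured on Illumina BeadChips. Per the file headers, the deposited intensity is a linear bead-averaged signal per probe without normalization, summarised in BeadStudio per the submitters' processing notes, and a bead count was deposited beside it (medians 38 to 40). The deposited detection p-value compares each signal with background probes, per the file headers. A second deposited intensity table, quantile normalized by its values, served as an alternative. Genes were named from the platform annotation; 1719 of 25697 probes had no single name.

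Signals went through limma's neqc (limma 3.58.1, R 4.3.3, offset 16, quantile normalization, log2). Each gene was represented by its detected probe with the highest mean. One limma fit of all arrays (4 residual degrees of freedom) covered 9915 genes and 6 comparisons; p-values were adjusted by Benjamini-Hochberg over all genes. Errors of changes are SE. The members, lists and alternatives were chosen with earlier results of these data known. Named members were, per comparison, up to 8 largest rises and falls that passed without overlap of replicates, plus a list of isoform genes, and per other list the 3 smallest adjusted p. The fit was tested on simulated data with independent noise per gene and the same spread in every group. No simulated array was shifted as IDE2 replicate 2 was, so that test does not cover such a shift. The number of arrays limits the precision.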

Additional observations from a re-analysis of the deposited data

How the results depend on the processing

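The settings tried were median scaling, the second table, skipping background correction, detection filters (none, or p under 0.01 on at least 4 arrays), all probes, an intensity trend with robust estimation, array weights, the replicate number as a block, only the arrays compared, leaving out arrays, and subunits only; the headers gave no slide, so slide as a block was not run. Of 32 calls on named members 7 held under all 19 settings. The cause of the moves below was not tested, except that fewer arrays leave fewer degrees of freedom.

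Counts of changed members against the main count: IDE2 against ES (20) was 11 with no detection filter and 7 with only the arrays compared, and 7 to 54 leaving out each array in turn. IDE2+FGF2 against ES (3) was 5 under median scaling, 1 with no filter, 5 with array weights, 5 with the replicate block, 21 when IDE2 replicate 2 was left out together with IDE2+FGF2 replicate 2 (both arrays), 8 with only the arrays compared, and 1 to 15 leaving out single arrays. IDE2+FGF10 against ES (7) was 4 with no filter, 31 with array weights, 34 without both arrays, 32 with only the arrays compared, and 1 to 21. IDE2+FGF2 against IDE2 (3) was 1 with no background correction, 13 under median scaling, 1 with the second table, 1 with no filter, 0 with array weights, 0 without both arrays, 1 with only the arrays compared, and 0 to 56. IDE2+FGF10 against IDE2 (5) was 2, 2, 0, 3, 3 and 0 with no background correction, the second table, no filter, array weights, without both arrays and with only the arrays compared, and 0 to 57. IDE2+FGF10 against IDE2+FGF2 (0) was 1 under median scaling, 6 without both arrays, and 0 to 3.

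Leaving out single arrays, the members' median change ranged from -1.45 to -0.06 for IDE2 against ES (-0.054 without both arrays), from -0.054 to 0.29 for IDE2+FGF2 against ES and from 0.055 to 0.10 for IDE2+FGF10 against IDE2+FGF2. The last was -0.11 under median scaling, 0.043 with no filter and 0.10 without both arrays. Atp5d between IDE2+FGF10 and IDE2+FGF2 (-0.06, not passed) reversed to 0.59 without both arrays (limma adjusted p = 0.0494), and was -0.69 without IDE2+FGF2 replicate 1. Under median scaling 1589 genes rose and 2889 fell in IDE2+FGF10 against ES (2206 and 2265 in the main fit), and in IDE2+FGF10 against IDE2 and against IDE2+FGF2 194 and 136 rose and 1410 and 1237 fell (409 and 258 rose and 968 and 467 fell in the main fit).

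The labels do not say whether the replicate numbers pair the arrays. Across all genes the correlation of replicate 2 minus replicate 1 between groups was -0.07 to 0.01, and across the members -0.29 to 0.21. With the replicate block the counts were 21, 5, 7, 2, 6 and 0 in the order above.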
